A study of Mus musculus with 2 samples.

Results

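The let-7 microRNAs that come from a single locus each were followed here, namely Mirlet7b, Mirlet7d, Mirlet7e, Mirlet7g and Mirlet7i, together with the related Mir98. They were picked by gene symbol, and all 6 were found among the 2202 microRNA genes of both count tables. The data are small RNA libraries of molecules under 30 bases from the left cerebral cortex of female mice aged 4 days. The animals were B6CASTF1/J, a hybrid strain whose name joins a C57BL/6 and a castaneus parent. There was 1 group of 2 biological replicates, each from its own numbered animal, although the donor record is the same for both. No treatment or mutant is given in the labels, so the study holds no contrast between conditions, and no test between groups was possible.

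MicroRNAs are short RNAs that guide Argonaute proteins to messenger RNAs, mainly by pairing through the seed, bases 2 to 8 of the mature strand. A let-7 precursor is a hairpin cut by Drosha and then by Dicer. The stem cell protein LIN28 binds let-7 precursors and blocks this maturation, and let-7 in turn represses Lin28 messages. Mature let-7 is known to accumulate as cells leave the stem or progenitor state, and in the developing brain it is linked to neuronal differentiation.

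The mature strand of the 5p arm is printed for each gene, because the seed is what joins the genes and the later bases are what set them apart. Sequences are RefSeq's on GRCm38.p6, the seed is in capitals, and let-7c-5p and let-7a-5p, which come from duplicated loci, are added as close relatives.
let-7i-5p: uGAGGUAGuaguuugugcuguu
let-7g-5p: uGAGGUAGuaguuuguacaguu
let-7b-5p: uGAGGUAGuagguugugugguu
let-7d-5p: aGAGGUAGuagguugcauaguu
let-7e-5p: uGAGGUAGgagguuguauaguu
miR-98-5p: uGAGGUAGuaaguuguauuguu
let-7c-5p: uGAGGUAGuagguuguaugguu
let-7a-5p: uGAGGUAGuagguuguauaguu

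All 6 genes share the seed GAGGUAG, and all 6 of these 5p strands are 22 bases long. Counted from 1 at the 5′ end and relative to let-7b-5p, the other strands differ by 3 or 4 bases. let-7i-5p differs by G12U, U18C and G19U, and let-7g-5p by G12U, G17A, U18C and G19A. let-7d-5p differs by U1A, U16C, G17A and G19A, which makes it the member that does not start with U. let-7e-5p differs by U9G, G17A and G19A, and miR-98-5p by G11A, G17A and G19U. Among the members, let-7i-5p and let-7g-5p are the closest pair, with 2 differences (G17A and U19A from let-7i to let-7g), and let-7i-5p and let-7d-5p the farthest, with 6.

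Distance to the duplicated relatives also varied. let-7b-5p is 1 base from let-7c-5p (G17A), and let-7e-5p is 1 base from let-7a-5p (G9U). let-7g-5p, let-7d-5p and miR-98-5p are 2 bases from their nearest duplicated relative, and let-7i-5p is 4 bases away. None of the 6 genes' mature strands, 5p or 3p, occurs whole in another of the 1005 RefSeq hairpins searched. A read must however be long enough to tell them apart: the shortest stretch from the 5′ end found in no other hairpin is 9 bases for let-7d-5p, 11 for miR-98-5p and 17 for let-7i-5p, let-7g-5p, let-7b-5p and let-7e-5p. Other places in the genome were not searched.

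The hairpins are printed next because counts were summed over the whole hairpin, so that the 5p and 3p strands of a gene stand in 1 number. Both mature strands are in capitals.
Mirlet7i hairpin: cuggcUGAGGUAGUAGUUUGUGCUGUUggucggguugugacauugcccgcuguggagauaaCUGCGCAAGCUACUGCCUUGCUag
Mirlet7g hairpin: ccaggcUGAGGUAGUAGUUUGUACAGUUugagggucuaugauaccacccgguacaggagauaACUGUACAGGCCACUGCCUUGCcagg
Mirlet7b hairpin: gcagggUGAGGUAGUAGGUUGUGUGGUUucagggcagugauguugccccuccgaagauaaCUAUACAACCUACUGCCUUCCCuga
Mirlet7d hairpin: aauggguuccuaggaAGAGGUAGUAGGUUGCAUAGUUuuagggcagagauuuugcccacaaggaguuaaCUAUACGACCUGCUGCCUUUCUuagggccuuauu
Mirlet7e hairpin: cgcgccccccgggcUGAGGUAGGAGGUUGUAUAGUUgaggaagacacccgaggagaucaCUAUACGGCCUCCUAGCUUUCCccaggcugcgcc
Mir98 hairpin: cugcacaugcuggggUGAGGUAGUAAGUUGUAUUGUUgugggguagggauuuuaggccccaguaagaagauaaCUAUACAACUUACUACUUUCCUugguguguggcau

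The 3p strands do not share the seed of the 5p strands. That of let-7b and that of miR-98 have UAUACAA at bases 2 to 8, and the other 4 each have a seed of their own in this set. The hairpins are 85 to 108 bases long, with 23 to 36 bases between the mature strands. The letters GGAG, a motif that the zinc knuckles of LIN28 are known to bind in let-7 precursors, were searched on the transcribed strand. They occur between the mature strands in 4 of the 6 hairpins, starting at base 54 in Mirlet7i, 56 in Mirlet7g, 62 in Mirlet7d and 52 in Mirlet7e, with 3 or 4 bases between the end of the motif and the 3p strand. Mirlet7e holds them once more at base 22, inside its 5p strand. Mirlet7b and Mir98 do not have these letters. Over RefSeq hairpins of 85 to 108 bases, members included, 45.0% of 242 hold GGAG anywhere. Between annotated mature strands 23 to 36 bases apart, let-7 genes again included, 24.6% of 61 hold it. At any distance between the strands the share is 8.07% of 644. Among the 6 duplicated let-7 hairpins 5 hold it anywhere, all but Mirlet7c-2. Such a match is a description of letters, not of binding.

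Coordinates are on mm10 with GENCODE M21, and each RefSeq hairpin has the same start, end and strand there. Mirlet7i (ENSMUSG00000065406.3, minus strand, chr10:122985640-122985724) lies in an exon of 1 of 2 transcripts of D630033A02Rik, a transcribed processed pseudogene. Mirlet7g (ENSMUSG00000065440.1, plus strand, chr9:106178840-106178927) lies in an intron of 5 of 6 transcripts of the protein-coding Wdr82. No other microRNA gene is annotated within 10 kb of either of them. Mirlet7b (ENSMUSG00000065564.1, plus strand, chr15:85707319-85707403) lies in an exon of 1 of 2 transcripts of the noncoding Lncppara, 621 bases after Mirlet7c-2. Mirlet7d (ENSMUSG00000065453.1, minus strand, chr13:48536012-48536114) lies in an exon of the lincRNA 6720427I07Rik, with Mirlet7f-1 and Mirlet7a-1 1714 and 2064 bases away. Mirlet7e (ENSMUSG00000105758.1, plus strand, chr17:17830352-17830444) lies in an intron of 2 of 16 transcripts of Spaca6. It stands between Mir99b, 94 bases away, and Mir125a, 367 bases away. Mir98 (ENSMUSG00000065536.2, plus strand, chrX:151913214-151913321) lies in an intron of 2 of 23 transcripts of Huwe1, a ubiquitin ligase gene, 785 bases after Mirlet7f-2.

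On the annotated strand of microRNA genes, 3555469 reads were counted in replicate 1 and 2761003 in replicate 2. Levels are in CPM, counts scaled to a shared total of 1000000, so that 1 CPM stands for 3.56 and 2.76 reads. Neuron-enriched microRNAs held 8.75% of these counts in replicate 1 and 6.79% in replicate 2, led by Mir139 with 28335 and 18964 CPM. This and the other marker lists were drawn up with earlier results of these data known, so they give no independent check of the tissue label. Of the neuron-enriched list 10 of 14 were at 2 CPM or more in both libraries, as were 20.4% of all 2202 genes. Mir124a-1, Mir124a-2, Mir124a-3 and Mir9-2 were not, and reads that map to several places are left out of all counts. Of 5 striated muscle microRNAs, 4 had no read, and the liver microRNA Mir122 held 0.00633% and 0.00786%. Marker lists of other cell types differed between the libraries. Epithelial microRNAs held 0.248% and 0.0361% (6 of 7 detected), the Mir183 cluster 0.0458% and 0.00634% (2 of 3), and choroid plexus and ciliated cell microRNAs 0.523% and 0.279% (5 of 7). Red cell microRNAs held 0.00602% and 0.0550% (3 of 4, Mir451b at 0), vascular ones 1.63% and 2.38% (3 of 3), and microglia and leukocyte ones 0.110% and 0.119% (5 of 5). The part of these lists in the ratios between libraries given below was not tested. In bulk tissue, fewer cells of a type and less RNA per cell cannot be told apart.

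The 6 genes together took up nearly 1 in 3 of all microRNA counts. Their joint share was 30.1% in replicate 1 (95% Wilson interval 30.1 to 30.2) and 33.0% in replicate 2 (32.9 to 33.0), or 31.6% ± 2.00 (SD, n = 2, as for every mean below). All 6 reached 2 CPM in each of the libraries, the minimum used here for detection, as did 20.4% of all 2202 genes. All intervals here cover counting error alone and treat reads as independent. Amplified reads are not independent molecules, so the intervals can be too narrow even for that error. Reads mapped to several places, 45.8% of all reads in replicate 1 and 41.0% in replicate 2, are left out of these counts. Shares and ranks therefore hold among counted reads only.

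Mirlet7i, which acts through the shared seed like the others, had the highest count of any microRNA gene in each library. It had 345925 counts in replicate 1, or 97294 CPM, and 322655 in replicate 2, or 116862 CPM. Mirlet7g was second in each library, with 280931 counts (79014 CPM) in replicate 1 and 259640 (94038 CPM) in replicate 2. Mirlet7b came next in each, with 265406 counts (74647 CPM) and 180890 (65516 CPM). These 3 genes alone held 25.1% of replicate 1 and 27.6% of replicate 2. Mirlet7i and Mirlet7g had the lower CPM in replicate 1, whereas Mirlet7b had the lower CPM in replicate 2.

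The next members stood well below those 3. Mirlet7d had 88831 counts (24984 CPM) in replicate 1 and 80314 (29089 CPM) in replicate 2, which put it at rank 9 and rank 5. Mirlet7e had 75779 counts (21313 CPM) and 52940 (19174 CPM), at rank 11 and rank 12. Mir98, which differs from the let-7 name but not in its seed, had 14737 counts (4145 CPM) and 13624 (4934 CPM), at rank 52 and rank 43. Mir98 was lowest of the 6 in both libraries, and Mirlet7i had 23.5 times its counts in replicate 1 and 23.7 times in replicate 2.

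**Figure D1:**
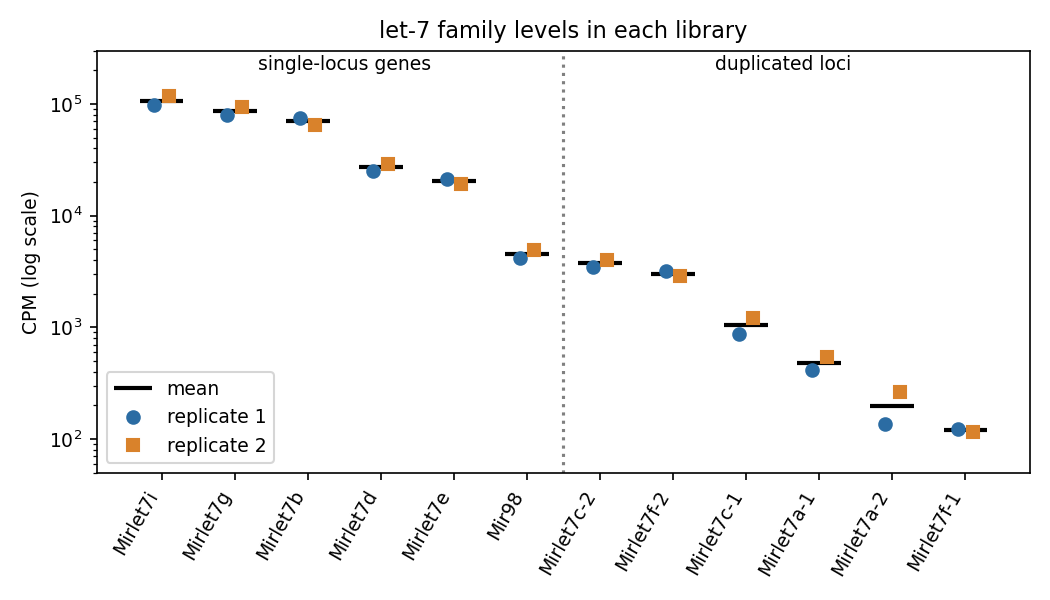
Level in CPM (log axis) of each let-7 gene and Mir98 in replicate 1 (circles) and replicate 2 (squares), with the mean of both as a bar. The 6 single-locus genes stand left of the dotted line, from Mirlet7i at 107078 CPM to Mir98 at 4540 CPM, and all lie above the duplicated loci to its right.

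The order of mean levels was Mirlet7i (107078 ± 13836 CPM), Mirlet7g (86526 ± 10624), Mirlet7b (70082 ± 6457), Mirlet7d (27037 ± 2902), Mirlet7e (20244 ± 1513) and Mir98 (4540 ± 558). No neighbours in this order overlapped over the libraries, and all 15 pairs of genes stood in the same order in both. The gaps were narrow at places. The lower value of Mirlet7i (97294 CPM) was close to the higher value of Mirlet7g (94038 CPM), and in replicate 1 Mirlet7g had 1.06 times the counts of Mirlet7b (exact counting interval 1.05 to 1.06) against 1.44 times (1.43 to 1.44) in replicate 2. With n = 2 no test of these gaps was made.

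Levels per length gave the same order. The molecules sequenced were under 30 bases, shorter than every hairpin, so counts need not scale with hairpin length. In CPM per 100 bases of annotated hairpin, Mirlet7i stood at 125974 ± 16278, Mirlet7g at 98325 ± 12073 and Mirlet7b at 82449 ± 7596. Mirlet7d stood at 26249 ± 2818, Mirlet7e at 21768 ± 1626 and Mir98 at 4203 ± 517 on that scale. The gaps changed in size, since the hairpins are 85 to 108 bases long and Mir98 has the longest. How readily each strand is ligated and amplified was not measured and can differ between sequences.

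Between the libraries the 6 genes differed by small factors and in both directions. Ratios are given as the log2 ratio of replicate 2 over replicate 1, after trimmed mean of M-values (TMM) scaling, so a value above 0 means a higher level in replicate 2. Mirlet7i was 1.19-fold higher in replicate 2 (0.25, counting interval 0.24 to 0.25), Mirlet7g 1.18-fold (0.23, 0.23 to 0.24) and Mir98 1.18-fold (0.23, 0.20 to 0.27). Mirlet7d was 1.15-fold higher there (0.20, 0.19 to 0.22). Mirlet7b went the other way and was 1.15-fold higher in replicate 1 (-0.21, -0.21 to -0.20), as was Mirlet7e by 1.13-fold (-0.17, -0.19 to -0.15).

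None of the 6 was 2-fold apart between the libraries. Of the 308 genes whose counts summed to 100 or more, 15.9% were, 11.0% higher in replicate 1 and 4.87% higher in replicate 2. Only 107 of these 308 genes were at 1000 CPM or more, as all 6 members were. The 2-fold share was not computed for that level, so 15.9% is not a share for genes like the members. Counting intervals left out 0 for all 6 members, 4 above and 2 below, but so they did for 77.9% of the 308 genes (33.4% above and 44.5% below). At these counts the intervals are narrow, and they leave out the spread between animals. The median absolute log2 ratio was 0.22 over the members, 0.33 over the 308 genes and 0.29 over the 107 genes at 1000 CPM or more. The signed median was 0.22 over the members and -0.09 over the 308 genes. With 1 library from each animal, these ratios could not be tested.

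**Figure D2:**
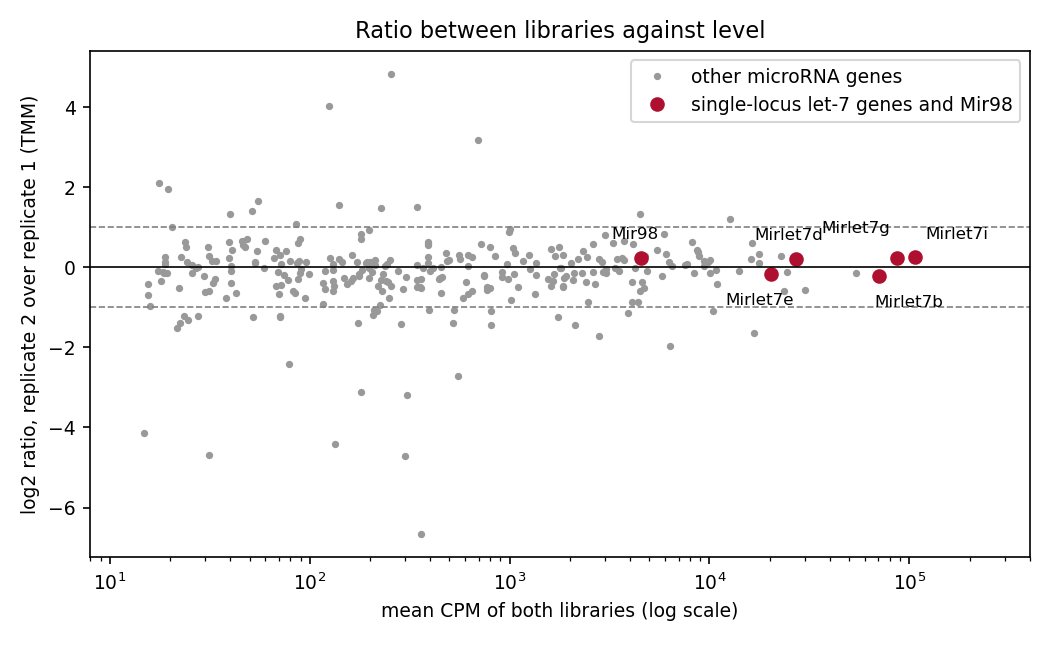
Log2 ratio of replicate 2 over replicate 1 (TMM-scaled) against mean CPM (log axis) for the 308 genes whose counts summed to 100 or more, with dashed lines at a 2-fold difference. The 6 genes (large points) lie between -0.21 and 0.25, with 4 above 0 and 2 below, inside the dashed lines.

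Ratios of 2 genes within a library need no scaling between libraries, and they sorted the members into a set of 4 and a set of 2, a split drawn after the values had been seen. Mirlet7i had 1.23 times the counts of Mirlet7g in replicate 1 (1.23 to 1.24) and 1.24 times in replicate 2 (1.24 to 1.25). Mirlet7g had 19.1 times the counts of Mir98 in both. Mirlet7b had 3.50 times the counts of Mirlet7e in replicate 1 (3.47 to 3.53) and 3.42 times in replicate 2 (3.38 to 3.45). Each of these pairs kept its proportion closely from one animal to the other.

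Pairs across that split did not. Mirlet7i had 1.30 times the counts of Mirlet7b in replicate 1 (1.30 to 1.31) and 1.78 times in replicate 2 (1.77 to 1.79). Mirlet7d had 1.17 times the counts of Mirlet7e in replicate 1 (1.16 to 1.18) and 1.52 times in replicate 2 (1.50 to 1.53). In all, the 7 pairs within Mirlet7i, Mirlet7g, Mirlet7d and Mir98 or within Mirlet7b and Mirlet7e had ratios at most 3.16% apart between the libraries, and the 8 pairs across differed by 29.4% to 36.9%. On the log2 scale the first were shifted by at most 0.04 and the second by 0.37 to 0.45. Over the 5050 pairs of the other 101 genes at 1000 CPM or more, the median absolute shift was 0.47. The member pairs across thus moved less than that median, and 5.31% of those other pairs moved no more than the pairs within did. Because the sets were drawn from these same ratios, their closeness is a description and supports nothing further. Of the other 101 genes at 1000 CPM or more, 4 (Mir652, Mir143, Mir322 and Mir337, named after their values were seen) had TMM-scaled log2 ratios within the range of the set of 4, and 1 (Mir540, likewise) within that of the set of 2, so these ranges are not particular to the members.

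**Figure D3:**
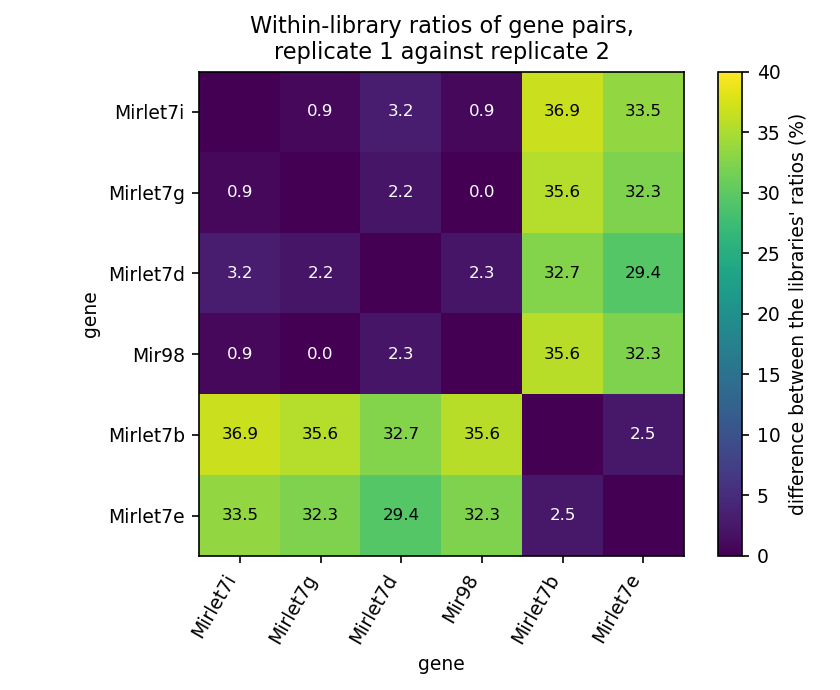
Difference between replicate 1 and replicate 2, in percent, of the ratio of 2 genes' counts within a library, for all 15 pairs (each shown above and below the diagonal). The block of Mirlet7i, Mirlet7g, Mirlet7d and Mir98 and the block of Mirlet7b and Mirlet7e lie at or below 3.16%, and pairs across the blocks at 29.4% to 36.9%.

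The same counts can be written as shares of the 6 genes' total, which restates the ratios above. Mirlet7b made up 24.8% of that total in replicate 1 and 19.9% in replicate 2, and Mirlet7e 7.07% and 5.82%. Mirlet7i made up 32.3% and 35.5%, Mirlet7g 26.2% and 28.5%, Mirlet7d 8.29% and 8.83%, and Mir98 1.38% and 1.50%. The former pair thus had the larger shares in replicate 1 and the other 4 in replicate 2. Mirlet7b and Mirlet7e are also the members whose printed 5p strand is 1 base away from a duplicated relative, as given above, and 45.8% of reads in replicate 1 and 41.0% in replicate 2 mapped to more than 1 place. The part of mapping in the split was not tested.

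Other genes matched the members' levels in both libraries to varying degrees. Likeness was the Euclidean distance over the log2 CPM of the 2 libraries, over genes whose counts summed to 100 or more. Mir149, a brain-enriched microRNA, was nearest to Mirlet7e (distance 0.07) with 21926 and 19859 CPM, and Mir708 was nearest to Mir98 (0.09) with 4246 and 5242 CPM. Mir744 was nearest to Mirlet7d (0.30) with 25328 and 23645 CPM. Mir99a, at 56194 and 51820 CPM, was nearest to Mirlet7b (0.53), Mirlet7g (0.99) and Mirlet7i (1.42). These 3 stood above all other genes in counted reads in each library. The distances join both libraries, so they are not the log2 fold difference in either. In the order of mean level Mirlet7d lay between Mir298 and Mir744, Mirlet7e between Mir149 and Mir382, and Mir98 between Mir676 and Mir92b.

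At the 4 clustered loci, where genes may be cut from a shared primary transcript, members and neighbours did not stand in a fixed proportion. At Mirlet7e the neighbours carry seeds other than let-7's. Mir99b had 26801 counts (7538 CPM) in replicate 1 and 48946 (17728 CPM) in replicate 2, so that Mirlet7e had 2.83 times its counts (2.79 to 2.87) and then 1.08 times (1.07 to 1.10). This ratio differed 2.61-fold between the libraries, more than at the other neighbours. Mir125a had 44247 counts (12445 CPM) and 25892 (9378 CPM), and Mirlet7e had 1.71 times its counts (1.69 to 1.73) and 2.04 times (2.01 to 2.08). Within the same 3-gene cluster, Mirlet7e and Mir125a were thus lower in replicate 2 and Mir99b was higher.

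At the other clusters the neighbours were duplicated let-7 genes, whose counts leave out reads that map to several places. Mirlet7b had 21.4 times the counts of Mirlet7c-2 in replicate 1 and 16.3 times in replicate 2, with counting intervals that do not overlap. Mirlet7d had 59.8 times those of Mirlet7a-1 (56.8 to 63.0) and 53.3 times (50.6 to 56.1), and 203 times (185 to 223) and 250.2 times (224 to 280.1) those of Mirlet7f-1. Mir98 had 1.31 times the counts of Mirlet7f-2 in replicate 1 (1.28 to 1.34) and 1.71 times in replicate 2 (1.66 to 1.75). These ratios differed by 1.12-fold to 1.31-fold between the libraries. As log2 shifts they ran from -0.39 to 0.38, with 0.26 for Mirlet7e over Mir125a and -1.39 for Mirlet7e over Mir99b. The median absolute shift over pairs of other genes at 1000 CPM or more, given above, was 0.47, and only the last was larger in size. Mirlet7a-1 (mean 482 CPM) and Mirlet7f-1 (mean 120 CPM) lie below that level, so for their ratios the median is not a like comparison. Mirlet7c-2 had a log2 ratio of 0.19, above 0 while its neighbour Mirlet7b was below, and Mirlet7f-2 had -0.15, below 0 while its neighbour Mir98 was above.

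**Figure D4:**
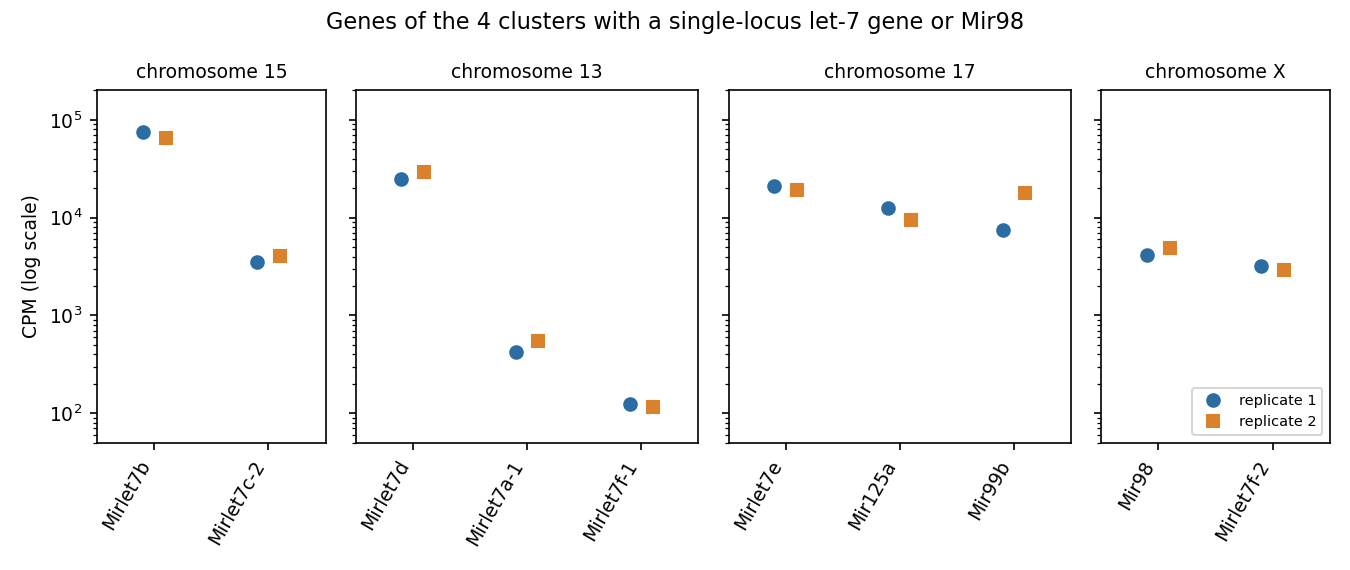
Level in CPM (log axis) of Mirlet7b, Mirlet7d, Mirlet7e and Mir98 and of the microRNA genes within 10 kb on the same strand, in replicate 1 (circles) and replicate 2 (squares). Mir99b stands at 7538 CPM in replicate 1 and 17728 CPM in replicate 2, beside Mirlet7e at 21313 and 19174 CPM.

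Within the sequence-defined family the 6 genes held nearly all counted reads. RefSeq lists a mature strand with the seed GAGGUAG for 13 genes, among them Mir7k with 1 read and Mir1961 with none. Mirlet7a-2 is not among the 13, because let-7a-5p is listed under Mirlet7a-1 alone. The whole let-7a-5p strand does occur in 1 other hairpin. The members held 97.4% of the family's counts in both replicate 1 (97.4 to 97.4) and replicate 2 (97.4 to 97.4). The 6 duplicated loci, Mirlet7a-2 included, held 0.820% and 0.905% of all microRNA counts, with Mirlet7c-2 leading at 3755 ± 374 CPM, below Mir98. Because reads of duplicated strands can fall among those mapped to several places, these shares cannot be read as amounts of mature RNA from single-locus and duplicated genes.

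Strand decided the value of 1 member. Gm25927, a microRNA gene annotated on the minus strand from 17830343 to 17830459, spans all of Mirlet7e. In the column that ignores strand, Mirlet7e stood at 0 in both libraries, and its 75779 and 52940 reads equal 35.6% and 30.1% of the reads that this column lists as ambiguous. The other 5 members had the same counts in both columns to within 3 reads. On their opposite strand Mirlet7b had 1 read in replicate 1 and 3 in replicate 2, and the other 5 members had none.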

How the data were processed

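The authors deposited a table of raw read counts for each library, with 1 row per microRNA gene. The deposited notes name mm10 and annotation M21. Which aligner and counter were used, and how reads were trimmed, is not given in the sources used here. The 3 value columns carry no names and were read, from layout and values, as either, annotated and opposite strand. Reads mapped to several places, unmapped, outside genes or ambiguous stand in separate totals (69.6% and 72.2% of all reads) and were left out of library sizes.

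All 2202 gene IDs matched M21, and all 6 members matched RefSeq's microRNA sequences (GRCm38.p6). CPM were computed from annotated-strand counts. TMM factors came from edgeR 4.0.16 (R 4.3.3), with 0.5 added to each count, and intervals from scipy 1.17.1 (Wilson for shares, exact Clopper-Pearson for ratios, 95%). The log2 ratios were also computed on simulated counts that held counting error alone and changes larger than those of the members. That run checks the arithmetic and says nothing about spread between animals or the width of the intervals. A chi-square of 322 per degree of freedom over genes with 10 or more summed counts set the tables apart as different libraries.

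Members and marker lists were chosen with earlier results of these data known. Named genes were the members, microRNA genes within 10 kb, genes with the let-7 seed or name, the nearest gene by level, the non-members next in order, host genes and marker genes. Alternatives covered strand, denominator, length, scaling, prior count, minimum count, detection minimum, lists and each replicate. Whether castaneus variants affect mapping was not tested.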

Additional observations from a re-analysis of the deposited data

Results flagged for a closer look

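Reads on a gene's opposite strand enter no level of that gene. They stood above the 3 counts that a count of 0 allows at 2 genes that lie across from let-7 genes. In each case the number equals that counted for the let-7 gene itself, which does enter the values above. At Gm25927 the opposite-strand reads numbered 75779 (replicate 1) and 52940 (replicate 2), equal to the counts of Mirlet7e on its own strand. Gm24111, across from Mirlet7f-1 in the cluster of Mirlet7d, had 438 and 321, the same as Mirlet7f-1. Both had no read on their own strand.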

How the results depend on the processing

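No alternative reversed the sign of a log2 ratio between the libraries. Ignoring strand put Mirlet7e at 0 CPM, which by construction is where reads of overlapping genes are set aside, changed the order of 1 pair of 15 (Mir98 above Mirlet7e), and gave the members 97.3% of family counts against 97.4%. Scaled to all reads in place of microRNA counts, levels were by construction lower: Mirlet7i 31032, Mirlet7g 25082, Mirlet7b 20455, Mirlet7d 7841, Mirlet7e 5905 and Mir98 1316, with a joint share of 9.16%. Scaled to the counts of other microRNA genes they were by construction higher: 156794, 126689, 102290, 39577, 29555 and 6647, with a joint 46.2%. Per 100 bases of hairpin Mirlet7i stood at 125974, Mirlet7g at 98325, Mirlet7b at 82449 and Mirlet7e at 21768.
With plain library sizes log2 ratios were 0.26 for Mirlet7i, 0.25 for Mirlet7g, -0.19 for Mirlet7b, 0.22 for Mirlet7d and -0.15 for Mirlet7e. With TMM computed without the members they were 0.28, 0.26, -0.18, 0.23 and -0.14. With RLE factors they were 0.26 for Mirlet7i, 0.24 for Mirlet7g and -0.20 for Mirlet7b. Genes at least 2-fold apart numbered 88 of 440 (20.0%) and 311 of 795 (39.1%) at a minimum summed count of 20 and of 1, against 49 of 308 (15.9%), and the cause was not tested. Mirlet7a-2, added to the family after seeing the data, gave 97.3%. Of 120 alternative values, the other 81 stayed within the replicate SD, the counting interval or 1.5 times the count. The 81 include means recomputed without 1 replicate. With n = 2 these lie within the SD by construction, so they say nothing about stability. Ratios between libraries could not be recomputed with a replicate left out, since 1 library gives none. No paired analysis was possible because there is 1 group.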
